A study of Mus musculus with 6 samples.

Results

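The genes described here encode proteins of glucose uptake and glycolysis: the transporter gene Slc2a1, the hexokinase genes Hk1 and Hk2, Gpi1, Pfkl, Pfkp, Aldoa, Tpi1, Pgk1 and Ldha. They and the further gene lists below were chosen by name, with earlier results of these data known. A table row belonged to a gene where the array's platform annotation gave that symbol. Of the 10 genes, 8 had a row, 1 row each, among the 10698 genes and 16281 rows of the table. Gpi1, which converts glucose 6-phosphate to fructose 6-phosphate, and Tpi1, which interconverts the triose phosphates, matched no row. Hk1 had a row that was listed at exactly 0 on all 6 arrays. A value of exactly 0 was treated as not measured, so 7 genes had a measured value, and 5 of them (Slc2a1, Hk2, Pfkl, Pfkp and Ldha) were measured on all 6 arrays. Aldoa was measured on 3 arrays and Pgk1 on 2, which left 1 complete pair of arrays for each and no test.

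The cells were RAW 264.7, a mouse macrophage line, cultured for 8 h either untreated or with 100 ng/ml lipopolysaccharide (LPS), the Gram-negative cell wall component, plus 100 pM LPS-binding protein, which delivers it to its receptor. Both RNAs were hybridised to the same two-colour array, with treated RNA in Cy5 and untreated RNA in Cy3 on 3 arrays (forward arrays) and the dyes exchanged on the other 3 (reversed arrays). The series title and some labels write 264.4 for the line, and the commoner name is used here. The arrays carry set numbers 1 to 3, each used once per dye orientation, and each pair of arrays was averaged to 1 replicate so that a gene's dye bias cancelled. The model is 1 cell line at 1 time point, LPS was never given without LPS-binding protein, and no label states that sets came from separate cultures. The p-values therefore reflect how far these sets differ, a spread that may be technical. All values are log2 ratios of treated over untreated RNA, where 1 is a doubling. The table does not say which dye was the numerator. Cy5 over Cy3 is the likely reading, since the labels name Cy3 as the control channel and Cy5 as the test channel, and every sign below rests on it. On the reversed arrays the Cy5 channel held untreated RNA, so these names refer to channels and not to treatments.

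Glycolysis splits glucose into pyruvate, and lactate dehydrogenase turns pyruvate into lactate while restoring the NAD that the pathway consumes. Uptake through facilitative glucose transporters, phosphorylation by hexokinase and phosphorylation by phosphofructokinase are its main points of control. Macrophages activated by LPS are known for raised glucose uptake and lactate output, and the hypoxia-inducible factor HIF-1 is a known activator of several glycolytic genes in these cells. It binds a short core element, ACGTG or GCGTG.

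The promoters of the transporter and hexokinase genes that rose, and of the lactate dehydrogenase gene that did not pass the test, are shown as examples of windows that hold that core. Windows of Hk1, Pfkl, Pfkp, Aldoa and Pgk1 hold it as well. Each line gives the 250 bases before the RefSeq gene start, 5′ to 3′ on the gene's strand, in build GRCm38.p6. Capitals mark every ACGTG or GCGTG on either strand, so that CACGT and CACGC are the same letters read from the opposite strand.
Slc2a1, chr4:119108495-119108744, plus strand: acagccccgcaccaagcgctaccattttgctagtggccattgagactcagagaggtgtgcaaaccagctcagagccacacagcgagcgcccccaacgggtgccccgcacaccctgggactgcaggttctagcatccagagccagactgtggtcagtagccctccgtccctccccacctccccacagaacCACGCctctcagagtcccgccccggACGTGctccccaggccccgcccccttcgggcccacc
Hk2, chr6:82774455-82774704, minus strand: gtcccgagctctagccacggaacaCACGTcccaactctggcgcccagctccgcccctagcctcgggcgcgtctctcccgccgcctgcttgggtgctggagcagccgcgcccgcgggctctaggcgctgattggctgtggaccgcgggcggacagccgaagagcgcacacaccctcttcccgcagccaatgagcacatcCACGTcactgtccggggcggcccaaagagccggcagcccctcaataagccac
Ldha, chr7:46845554-46845803, plus strand: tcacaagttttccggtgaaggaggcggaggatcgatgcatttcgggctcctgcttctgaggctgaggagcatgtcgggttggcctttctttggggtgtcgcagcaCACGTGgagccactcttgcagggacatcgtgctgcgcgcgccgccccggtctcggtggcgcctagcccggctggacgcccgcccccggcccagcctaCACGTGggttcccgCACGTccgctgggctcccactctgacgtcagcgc
The Slc2a1 window held 1 ACGTG, 36 bases before the start, and 1 GCGTG on the opposite strand. The Hk2 window held 2 ACGTG on the opposite strand, at 226 and 52 bases before the start. The first Ldha window held 5 ACGTG matches, of which 4 came from 2 copies of the palindromic E-box CACGTG, since each E-box contains ACGTG on both strands. All 10 genes had a RefSeq window, 14 in total because Hk1 and Ldha had 2 each and Aldoa had 3, of which 2 overlap. ACGTG was present in 6 of the 14 windows, against 16.6% of all 32851 windows of that length, and GCGTG in 5, against 28.2%. One or the other was present in 10 of the 14 windows, against 38.6% of all windows. The GC box GGGCGG was present in 9, against 32.7%, the E-box in 1, against 6.02%, and the kappaB consensus in 0, against 3.9%. These matches describe letters in a short window and do not separate the genes that rose from Ldha, whose window held the most ACGTG of the 14.

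The comparison asked how treatment for 8 h changed the abundance of these transcripts. Slc2a1 and Hk2, which act at the entry of the pathway, rose by 1.44-fold and 1.59-fold, while Pfkl, Pfkp and Ldha, which act further down, did not pass the test. Thus 2 of the 5 genes tested rose and 0 fell with the threshold of 0.05 on limma's adjusted p, computed from the 3 set means. Of all 10086 genes tested, 34.2% passed, 17.4% as higher and 16.8% as lower, and without set 3 the count was 2042 of 9546 against 3450 of 10086, so that 2 of 5 is near the share of genes called in either direction. The median log2 ratio of the 5 genes was 0.16, against -0.01 over all genes tested. In bulk RNA a change in the transcript per cell and a change in the share of cells that carry it cannot be told apart. Under this reading of the ratio, known LPS-induced genes had log2 ratios of 3.85 ± 0.33 (SD, n = 3 sets) for Il1b, 1.89 ± 0.19 for Tnf and 1.17 ± 0.16 for Nos2. Each was above 0 on all 6 arrays, and the opposite reading would make each negative.

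Slc2a1 encodes GLUT1, the glucose transporter that supplies most proliferating and activated cells. On the forward arrays its log2 ratios were 0.61, 0.80 and 0.85 in sets 1, 2 and 3, and on the reversed arrays they were 0.12, 0.40 and 0.41. All 6 arrays were higher in treated cells, but the values of the 2 dye orientations did not overlap, and set 1 was the lowest in both. The set means were 0.36, 0.60 and 0.63, with a mean of 0.53 ± 0.14 (SD, n = 3 sets), a 95% interval of 0.37 to 0.69 and a limma adjusted p of 0.00175. Its change was larger in size than that of 90.3% of the genes tested. On the reversed arrays alone the mean was 0.31 and limma's adjusted p 0.0686, against a mean of 0.75 on the forward arrays (adjusted p = 0.00261). The difference between orientations was 0.45 ± 0.05. Limma over the 3 set differences gave an unadjusted p of 0.00201, the smallest of the 5 tested genes, and an adjusted p of 0.124. Limma's dye term with 6 arrays as separate replicates had an adjusted p of 0.0744.

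Hk2 encodes hexokinase 2, an inducible enzyme that phosphorylates glucose and so traps it in the cell. Its log2 ratios were 0.44, 0.68 and 0.61 on the forward arrays and 0.65, 0.85 and 0.76 on the reversed arrays. Every array was higher in treated cells, and set 1 was again the lowest in each orientation. The 2 orientations overlapped in range, but within every set the reversed array gave the higher value. The forward minus reversed difference was -0.17 ± 0.03 (limma over the set differences, unadjusted p = 0.0373, adjusted p = 0.169). The set means of 0.54, 0.77 and 0.69 gave 0.67 ± 0.11 (SD, n = 3 sets), with a 95% interval of 0.52 to 0.81 and a limma adjusted p of 0.000453. Hk2 passed in each orientation alone, with limma adjusted p-values of 0.00523 for the forward arrays and 0.0059 for the reversed arrays. In size, whichever the sign, its ratio exceeded that of 93.4% of the genes tested. Hk1, the broadly expressed hexokinase that is the other member of this step, had no measured value, so the 2 isoenzymes could not be set side by side.

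**Figure D1:**
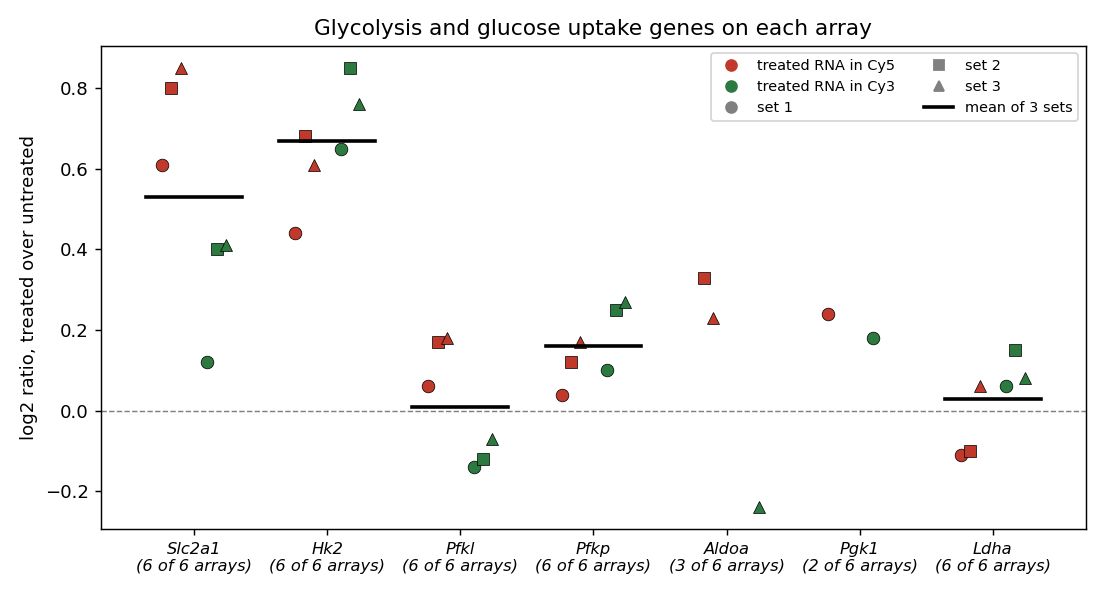
Log2 ratio of treated over untreated RNA (vertical axis) on each array for the 7 genes with a measured value, with colour for the dye of treated RNA, symbol for the set and a black line for the mean of 3 sets where the gene was tested. Slc2a1 and Hk2 lie above 0 on all 6 arrays, Pfkl lies above 0 on the forward arrays and below 0 on the reversed arrays, and Aldoa and Pgk1 have only 3 and 2 points.

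Phosphofructokinase, the committing step of glycolysis, is built from liver-type (Pfkl), platelet-type (Pfkp) and muscle-type (Pfkm) subunits. Pfkl had log2 ratios of 0.06, 0.17 and 0.18 on the forward arrays and of -0.14, -0.12 and -0.07 on the reversed arrays. The sign thus followed the dye on all 6 arrays. The set means were -0.04, 0.02 and 0.05, and their mean of 0.01 ± 0.05 had a 95% interval of -0.10 to 0.12 and a limma adjusted p of 0.885. Expressed as a ratio, that interval runs from 0.931 to 1.09. Pfkp had log2 ratios of 0.04, 0.12 and 0.17 on the forward arrays and of 0.10, 0.25 and 0.27 on the reversed arrays. All 6 arrays were above 0, yet the mean of 0.16 ± 0.08 did not pass (limma adjusted p = 0.06, unadjusted p = 0.0218, 95% interval 0.03 to 0.28). Its adjusted p was 0.0217 with the 6 arrays as separate replicates, 0.0259 with a block for set number, and 0.0383 without set 1. Pfkp exceeded Pfkl by 0.11, 0.16 and 0.17 in the 3 sets, a mean difference of 0.15 ± 0.03. The exact two-sided sign-flip test over 3 sets gave p = 0.25, the smallest it can give. On the forward arrays alone the difference was -0.02 and on the reversed arrays alone it was 0.32.

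Pfkm, the third subunit gene and one of the other glycolysis genes described further on, fell. Its log2 ratios were -0.16, 0.18 and -0.43 on the forward arrays and -0.44, -0.71 and -0.71 on the reversed arrays, so 5 of 6 arrays were lower. The mean was -0.38 ± 0.17 (SD, n = 3 sets, limma adjusted p = 0.00912), and on the forward arrays alone it was -0.14 (adjusted p = 0.449). The 3 subunit genes of this step therefore had 1 call among them, and it was in the opposite direction to Slc2a1 and Hk2.

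Aldoa encodes aldolase A, which cleaves fructose 1,6-bisphosphate. It was listed at 0 on 3 arrays, and its remaining log2 ratios were 0.33 and 0.23 on the forward arrays (sets 2 and 3) and -0.24 on the reversed arrays (set 3). The one complete set averaged 0.00, and as with Pfkl the sign followed the dye. Pgk1 encodes phosphoglycerate kinase, the first step that yields ATP. Both of its measured values came from set 1, at 0.24 on the forward array and 0.18 on the reversed array, a set mean of 0.21 with no replicate. With zeros kept as ratios of 1, limma's adjusted p was 0.508 for Aldoa and 0.436 for Pgk1.

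Ldha encodes the lactate dehydrogenase subunit that predominates in glycolytic tissues. Its log2 ratios were -0.11, -0.10 and 0.06 on the forward arrays and 0.06, 0.15 and 0.08 on the reversed arrays. The arrays lay on both sides of 0, with 4 of 6 above it. The mean was 0.03 ± 0.05 (SD, n = 3 sets, limma adjusted p = 0.719), and its 95% interval of -0.09 to 0.14 corresponds to ratios of 0.94 to 1.1. Rises of the size seen in Slc2a1 and Hk2 lay outside that interval.

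Ordered by log2 ratio, the tested genes ran from Hk2 (0.67) through Slc2a1 (0.53), Pfkp (0.16) and Ldha (0.03) to Pfkl (0.01). The intervals of the neighbours Hk2 and Slc2a1 overlapped, as did those of Pfkp, Ldha and Pfkl, whereas the intervals of Slc2a1 (from 0.37) and Pfkp (up to 0.28) did not. Set 1 had the lowest set mean in 5 of the 5 genes. Among the 9192 genes measured in all 3 sets, set 1 was the lowest in 38.2%, and the median log2 ratio of all genes was 0.00 in set 1, -0.01 in set 2 and 0.00 in set 3.

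**Figure D2:**
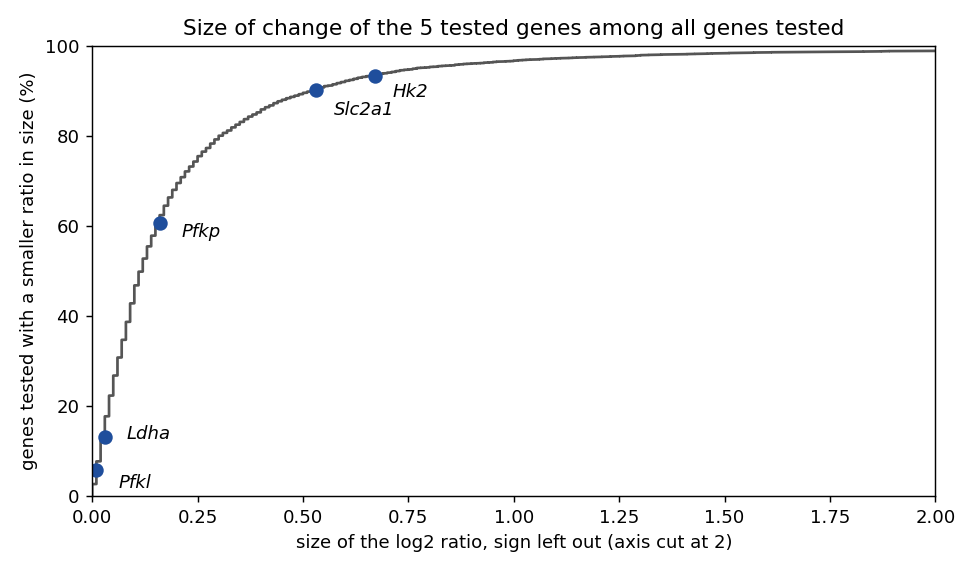
Cumulative distribution of the size of the log2 ratio, its sign left out, over the 10086 genes tested (horizontal axis, shown from 0 to 2; vertical axis, percent of genes with a smaller size), with the 5 tested genes marked as points. The ratio of Slc2a1 was larger in size than that of 90.3% of the genes, that of Hk2 than 93.4% and that of Pfkp than 60.7%, while Ldha (13.1%) and Pfkl (5.74%) lie near the low end.

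For Pfkl and Ldha the difference between dye orientations was larger than the treatment ratio itself. The mean of the forward arrays minus that of the reversed arrays was 0.45 for Slc2a1, 0.24 for Pfkl, -0.10 for Pfkp, -0.14 for Ldha and -0.17 for Hk2. In size, the difference for Slc2a1 exceeded that of 89.1% of genes and that for Pfkl exceeded 66.3%, while Hk2 stood near the middle at 50.5%. Limma over the 3 set differences called 0 of 10086 genes at an adjusted p under 0.05, with 2659 at an unadjusted p under 0.05, and the dye term with 6 arrays as separate replicates called 319 of 10331. None of the 5 genes was among them, with adjusted p-values of 0.0744 for Slc2a1, 0.0913 for Pfkl, 0.273 for Ldha, 0.287 for Hk2 and 0.458 for Pfkp in limma with separate arrays. Since each set mean holds both orientations, such a difference cancels in the reported ratios.

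**Figure D3:**
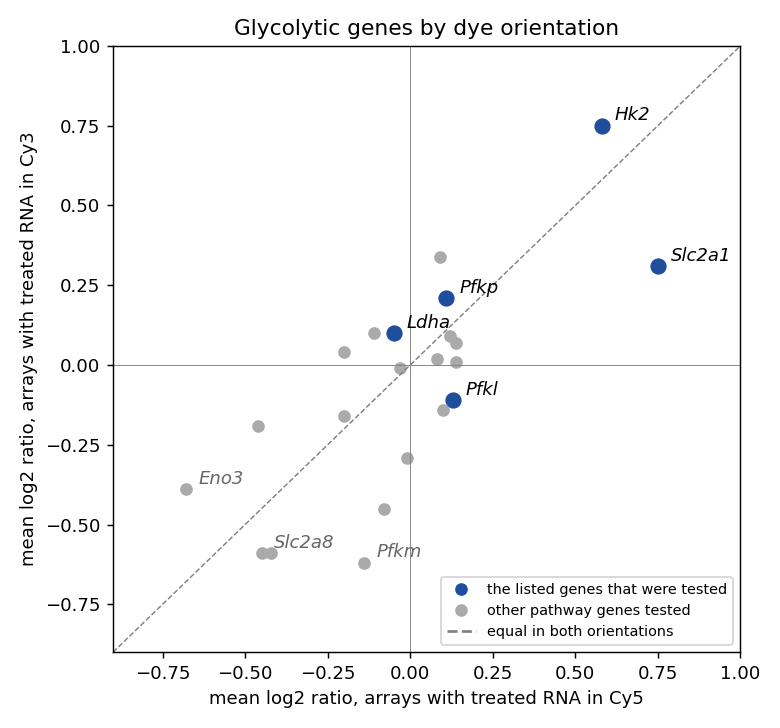
Mean log2 ratio on the 3 forward arrays (horizontal axis) against the mean on the 3 reversed arrays (vertical axis), for the 5 tested genes (blue) and the other pathway genes tested (grey), with the dashed line marking equal values. Hk2 lies above the line at 0.58 and 0.75, Slc2a1 lies to the right of the line at 0.75 and 0.31, and Pfkl falls in the quadrant of opposite signs at 0.13 and -0.11.

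The other genes of the pathway were read from a list of 29, of which 19 had a row and 17 were tested. Of these 1 rose and 6 fell, which is 41.2% called against 34.2% of all genes tested (17.4% higher and 16.8% lower), at a median log2 ratio of -0.08 against -0.01. Pgam2, the muscle phosphoglycerate mutase, was the gene that rose, by 0.22 ± 0.09 (SD, n = 3 sets, limma adjusted p = 0.0228), which was lost without set 3 (adjusted p = 0.175) and on the forward arrays alone (adjusted p = 0.357). Eno3, the muscle enolase, fell by 0.53 ± 0.11 (limma adjusted p = 0.0011), with 6 of 6 arrays lower, and its adjusted p was 0.0511 on the reversed arrays alone. Slc2a8, which encodes the mainly intracellular glucose transporter GLUT8, fell by 0.52 ± 0.14 (adjusted p = 0.00185). Its 6 log2 ratios ran from -0.68 to -0.29, and its 2 rows gave -0.55 and -0.48. The change in Slc2a8 was thus about the size of that in Slc2a1 and of opposite sign. Slc2a3, the gene of the high-affinity transporter GLUT3, had a log2 ratio of -0.15 (adjusted p = 0.133).

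Besides Pfkm, Eno3 and Slc2a8, the genes that fell were Bpgm (-0.33 ± 0.04, adjusted p = 0.00264), whose product makes 2,3-bisphosphoglycerate, the monocarboxylate transporter gene Slc16a7 (-0.41 ± 0.21, n = 2 sets, adjusted p = 0.0237) and Pfkfb3 (-0.18 ± 0.09, adjusted p = 0.0472), whose product makes the phosphofructokinase activator fructose 2,6-bisphosphate. They and Pfkm were named after their values were seen, and the adjusted p-values are limma's. Pfkfb3 stood at an adjusted p of 0.0565 with zeros kept and at 0.0754 to 0.122 with 1 set left out. On the reversed arrays alone the adjusted p was 0.098 for Bpgm and 0.0735 for Slc16a7. The lactate exporter gene Slc16a3 (-0.01, adjusted p = 0.938) and its relative Slc16a1 (-0.08, adjusted p = 0.351) did not pass. Pkm, the pyruvate kinase of most tissues, had 1 of its 2 rows measured, on 4 arrays, at -0.02 (n = 2 sets, adjusted p = 0.841), and the one row of Pgam1 was listed at 0 throughout. Eno1, another enolase gene, matched no row, so the calls on Eno3 and Pgam2 had no measured Eno1 or Pgam1 beside them. The ratios give no level, so how strongly these cells express the genes that were called could not be read.

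Gapdh, which oxidises glyceraldehyde 3-phosphate, had 25 rows, where each of the genes above had at most 3. Of these, 20 had a measured value, 11 were measured on all 6 arrays and 15 were tested. Their log2 ratios had a median of 0.04 and ran from 0.01 to 0.65, where 1 row measured in 2 sets was the one that rose. Of all 14343 rows, 32.7% passed in the fit by row, 17.1% as higher and 15.6% as lower. The mean of the 11 complete rows was 0.05 ± 0.04 (SD, n = 3 sets, limma adjusted p = 0.418, 95% interval -0.06 to 0.16), an interval about as wide as those of Pfkl and Ldha.

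**Figure D4:**
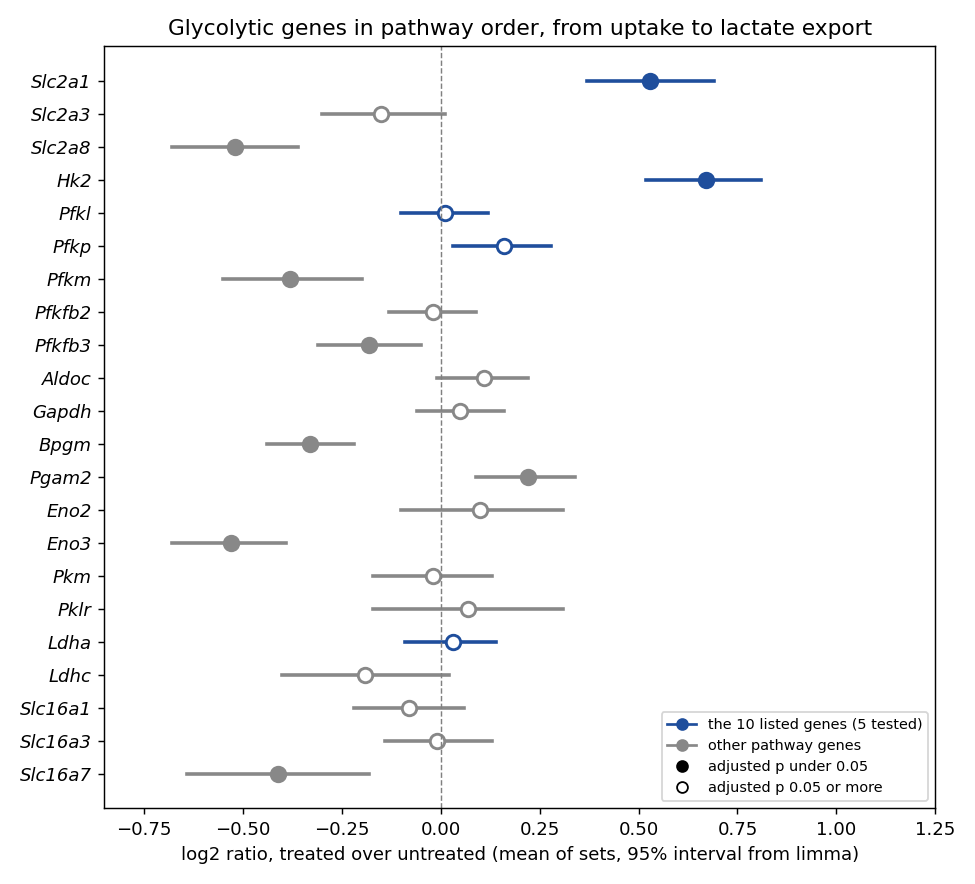
Log2 ratio of treated over untreated RNA (horizontal axis, mean of sets with limma's 95% interval as a bar) for the tested glycolytic genes from glucose uptake at the top to lactate export at the bottom, with the 5 tested genes of the set in blue and filled points at an adjusted p under 0.05. Slc2a1 and Hk2 stand at 0.53 and 0.67, Pgam2 is the only other filled point above 0, and 6 filled points lie below 0, from Eno3 at -0.53 to Pfkfb3 at -0.18.

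Routes that leave or feed glycolysis were read from 3 further lists. Among 9 tested pentose phosphate and ribose phosphate genes, 1 rose and 4 fell, which is 55.6% called against 34.2% of all genes tested, at a median log2 ratio of -0.16 against -0.01. Shpk, which encodes the sedoheptulose kinase known to restrain this shunt in activated macrophages, fell by 0.45 ± 0.12 (SD, n = 3 sets, limma adjusted p = 0.0025), with 5 of 6 arrays lower. On the reversed arrays alone its adjusted p was 0.155. Prps2, a phosphoribosyl pyrophosphate synthetase gene, fell by 0.43 ± 0.10 (adjusted p = 0.00192), and Rpe, the ribulose phosphate epimerase gene, rose by 0.31 ± 0.14 (adjusted p = 0.0142). The others that fell, named after their values were seen, were Pgls (-0.40 ± 0.03, adjusted p = 0.00116), the lactonase gene of the oxidative branch, and the transketolase gene Tkt (-0.23 ± 0.03, adjusted p = 0.00955), which was lost under 2 of 14 alternatives. Rpe had an adjusted p of 0.085 without set 3 and of 0.074 and 0.061 on the forward and the reversed arrays alone.

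Pyruvate dehydrogenase, its regulators and the mitochondrial pyruvate carrier link glycolysis to the citric acid cycle. Of 7 such genes tested (14.3% called against 34.2% of all genes), 0 rose and 1 fell, namely the carrier subunit gene Mpc1, at -0.14 (adjusted p = 0.0481 in limma), and this call was lost under 9 of 14 alternatives. Of 12 gluconeogenesis and glycogen genes tested, 2 rose and 1 fell (25% called). Fbp2, a fructose bisphosphatase gene, rose by 0.29 ± 0.12 (n = 2 sets, limma adjusted p = 0.0331) and Pgm2, a phosphoglucomutase gene, by 0.28 ± 0.13 (n = 3 sets, adjusted p = 0.0182), whereas the glycogen branching enzyme gene Gbe1 fell by 0.26 ± 0.03 (adjusted p = 0.00579). Fbp2 did not pass with 6 arrays as separate replicates (0.40, adjusted p = 0.0633; 0.41, adjusted p = 0.0708 with the set as a replicate block) or in either orientation alone (adjusted p = 0.168 and 0.101). Pgm2 was lost without set 3 (adjusted p = 0.119) and on the forward arrays alone (0.11, adjusted p = 0.221), and Gbe1 without set 3 (adjusted p = 0.054) and on the reversed arrays alone (adjusted p = 0.0646).

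Genes of the hypoxia-inducible factors, their regulators and their known targets were read as 1 list. The reason was that Slc2a1, Hk2, Pgk1 and Ldha are commonly counted among those targets. Of 17 tested, 4 rose and 2 fell, at a median log2 ratio of 0.04, and the share called, 35.3%, was near the 34.2% of all genes tested. Hif1a, the gene of the regulated subunit, rose by 0.36 ± 0.20 (SD, n = 3 sets, limma adjusted p = 0.0185). Its set means were 0.34, 0.57 and 0.16, and all 6 arrays were higher. Its adjusted p was 0.0579 on the forward arrays alone and 0.0562 on the reversed arrays alone. P4ha1, a collagen prolyl hydroxylase gene, rose by 0.88 ± 0.11 (adjusted p = 0.000148), with arrays from 0.71 to 1.00. The others that rose, named after their values were seen, were the angiogenic factor gene Vegfa (0.30 ± 0.12, adjusted p = 0.0103), a call lost under 2 of 14 alternatives, and Vhl (0.16 ± 0.07, adjusted p = 0.0496), whose product marks HIF subunits for degradation, a call lost under 9 of 14. The 2 that fell were Mxi1, an antagonist of Myc, at -0.67 ± 0.05 (adjusted p = 0.000204), and Ndrg1, a stress-response gene, at -0.63 ± 0.19 (adjusted p = 0.00158), whose second row gave -0.15 (adjusted p = 0.25).

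The array ratios give no level, so the macrophage label could not be checked against the abundance of its markers. As ratios, 5 of 7 tested macrophage markers rose and 1 fell, against 17.4% higher and 16.8% lower among all genes tested. Fcgr1, the high-affinity IgG receptor, rose by 2.11 ± 0.10 (SD, n = 3 sets, limma adjusted p = 5.21e-06) and the lysozyme gene Lyz2 by 1.21 ± 0.12 (adjusted p = 5.44e-05). Adgre1, Spi1 and Ptprc, named after their values were seen, stood at 1.16, 0.40 and 0.19, the last lost under 2 of 14 alternatives. The 3 rows of Ptprc differed, at 0.25, -0.01 and 0.33. Cd68, the tested marker that did not pass, stood at 0.12 (limma adjusted p = 0.118). Csf1r, the growth factor receptor of macrophages, stood at -0.19 ± 0.06 (adjusted p = 0.0245), a call lost under 4 of 14 alternatives. The part of these shifts in the glycolysis results was not tested.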

How the data were processed

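RNA of treated and untreated RAW 264.7 cells was compared on 6 two-colour arrays in 3 sets. The authors deposited log2 ratios, 1 per feature and array. The log2 base was read from the largest value, 6.643856, which is log2 of 100. How the arrays were scanned and normalized is not stated in the labels. The number of arrays limits the precision. Between 8.16% and 13.9% of the values per array were exactly 0 and were treated as not measured.

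Of 16281 features, 13738 had 1 gene symbol in the platform annotation, 52 had several and 2491 had none, and 13694 matched RefSeq of GRCm38.p6 by gene identifier. Reversed arrays were multiplied by -1. A gene was the mean of its rows measured on all 6 arrays, or else its row with the most measured arrays. Both arrays of a set were averaged where both were measured, and genes with at least 2 sets were tested against 0 with limma 3.58.1 in R 4.3.3 (lmFit, eBayes, Benjamini-Hochberg, threshold 0.05). A second fit was by row, and the dye difference was tested on the set differences. The procedure was tested on simulated data whose noise was independent between arrays and had the same SD for every gene. That checks the code and does not show how far the calls in these data hold. Turned ratios correlated over rows with r of 0.705 to 0.899 within an orientation and of 0.428 to 0.8 across orientations, and at most 0.0144% of measured values were identical between any pair of arrays.

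The members and gene lists were chosen with earlier results of these data known. From each further list the 2 largest rises and 2 largest falls that passed were named, or the gene of smallest p where none passed. Alternatives are given in the closing section. Promoter windows came from RefSeq.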

Additional observations from a re-analysis of the deposited data

Results flagged for a closer look

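The sign of Pfkl followed the dye orientation. Its log2 ratio was above 0 on each of the 3 forward arrays and below 0 on each of the 3 reversed arrays, a difference of 0.24 on average. Limma over the 3 set differences gave an adjusted p of 0.131 (unadjusted p = 0.0147), so the difference did not pass.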

How the results depend on the processing

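Hk2 stayed past the threshold under all 14 alternatives (log2 ratio 0.58 to 0.75), Slc2a1 under 13 of 14, and Pfkl and Ldha under 0. The genes that rose among the members numbered 1 on the reversed arrays alone and 1 to 3 over the alternatives, or 2 to 3 with 1 set left out, and 0 fell in any. Pfkl reversed to -0.11 on the reversed arrays alone and to -0.01 without set 3, and Ldha to -0.05 on the forward arrays alone. The difference of Pfkp and Pfkl reversed to -0.02 there and was 0.14 to 0.17 with 1 set left out. Slc16a1 reversed to 0.04 and Slc16a3 to 0.10 on the reversed arrays alone, Slc16a3 also to 0.03 and 0.02 without sets 1 and 2 (-0.07 without set 3), and Pkm to 0.10 on the forward arrays alone. Genes called over the whole table fell from 3450 to 2042 without set 3 (3383 at most with 1 set left out), and rows from 4690 to 2956 (4822 at most). Dye differences were called in 0 genes, in 1 after scaling, and in 319 with the dye term over separate arrays, a fit added after seeing the data. The cause was not tested. Deviations from the mean of each orientation were correlated on the deposited ratios, before reversed arrays were multiplied by -1. For same-numbered arrays r was 0.256, 0.212 and 0.0999 over the 12798 rows measured on all arrays. On that scale 2 of 3 sets matched their own number best in both directions. In ratios of treated over untreated RNA these 3 values of r change sign and are negative. With the 6 arrays as separate replicates, 3782 genes were called, and 3631 once the set was added as a replicate block. Pfkp passed in both of these fits (adjusted p = 0.0217 and 0.0259), so the block changed no call among the members. Hk1 had no measured value, so the planned difference of Hk2 and Hk1 was not run. With no intensities, signal over background limits every ratio to an unknown degree.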
